A study of Mus musculus with 6 samples.

Results

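Tyrobp lies on mouse chromosome 7 among a dense run of small genes, and 39 of those genes were described here. They were taken from its neighbourhood and not by their signals in this comparison, though earlier results of these data were known. The list does not hold every gene of the stretch: 19 other tested genes lie inside it besides Tyrobp, among them the near neighbours Hcst, Sdhaf1 and Syne4, and they are counted separately below. The 39 run from Zfp30, 25 places before Tyrobp in the order of protein-coding genes, to Gramd1a, 45 places after it, with Tyrobp itself left out. Of the 39 genes, 37 had at least 1 probe set annotated to a single gene symbol, in 49 probe sets out of 45037. Kirrel2 had none, and Igflr1 shared its probe sets with U2af1l4, so both were not analysed here. Prodh2, Lsr, Fxyd7 and Fxyd3 fell below the limit on dim probe sets, a mean signal of 8.51. This left 33 genes in 39 tested probe sets, out of 27022 probe sets and 12875 genes tested. The data are 6 expression arrays with 1 dye, hybridised with RNA of primary cultures of mouse microglia. Each array is called 1 culture here. The groups were 3 wild-type cultures and 3 cultures that the labels call Dap12-ko, here Dap12-deficient. Microglia are brain macrophages. Tyrobp encodes Dap12, through which Trem2 and related surface receptors activate the kinase Syk. The labels name neither the strain, age and sex of the animals nor how many animals a culture came from, which part of Tyrobp was deleted or which embryonic stem cells were used. Some sample titles carry a pair of numbers and others a single number, which the labels do not explain. Whether any array holds pooled RNA is therefore not known. The p-values measure the spread between these arrays, each taken as 1 culture.

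A targeted allele is made in embryonic stem cells and then passed on by breeding, and a stretch of chromosome around the target is inherited with it. Where the stem cells and the control animals come from different strains, genes in that stretch may carry sequence variants that change a transcript's level or how well an array probe binds it. A selection cassette left in the target can also change the level of nearby genes. The comparison of genes next to Tyrobp between the groups is the usual check for such effects. No genotypes were measured, so the extent of any donor DNA around Tyrobp was not tested.

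Start-site windows from RefSeq (build GRCm38.p6, 250 bases before to 50 bases after the annotated start, printed 5' to 3' on the strand of the gene) show the sequences of this neighbourhood. They are given for the first 3 genes after Tyrobp, for U2af1l4 as 1 gene of a divergent pair and for the 4 genes with the smallest p-values. CG dinucleotides, the sites of DNA methylation and a mark of broadly used promoters, are in capitals.
Hcst, the first gene after Tyrobp (chr7:30419805-30420104, reverse strand): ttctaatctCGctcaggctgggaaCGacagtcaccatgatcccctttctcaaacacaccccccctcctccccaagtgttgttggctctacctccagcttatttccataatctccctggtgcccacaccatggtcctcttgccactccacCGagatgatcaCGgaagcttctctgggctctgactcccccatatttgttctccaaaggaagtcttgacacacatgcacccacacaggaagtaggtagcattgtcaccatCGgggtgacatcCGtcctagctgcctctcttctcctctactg
Nfkbid, the second gene after Tyrobp (chr7:30421481-30421780, forward strand): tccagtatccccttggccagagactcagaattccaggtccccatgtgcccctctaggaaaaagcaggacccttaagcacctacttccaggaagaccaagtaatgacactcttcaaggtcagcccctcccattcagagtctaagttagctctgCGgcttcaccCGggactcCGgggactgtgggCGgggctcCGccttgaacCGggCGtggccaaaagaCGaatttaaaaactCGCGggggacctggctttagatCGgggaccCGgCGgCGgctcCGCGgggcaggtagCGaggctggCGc
Aplp1, the third gene after Tyrobp (chr7:30445533-30445832, reverse strand): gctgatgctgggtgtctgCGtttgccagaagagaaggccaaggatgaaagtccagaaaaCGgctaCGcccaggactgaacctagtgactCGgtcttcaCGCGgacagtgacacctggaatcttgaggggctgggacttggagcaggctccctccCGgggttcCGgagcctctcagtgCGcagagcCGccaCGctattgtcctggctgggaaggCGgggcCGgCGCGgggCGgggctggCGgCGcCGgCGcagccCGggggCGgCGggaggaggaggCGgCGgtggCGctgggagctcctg
U2af1l4, read away from Psenen (chr7:30563090-30563389, forward strand): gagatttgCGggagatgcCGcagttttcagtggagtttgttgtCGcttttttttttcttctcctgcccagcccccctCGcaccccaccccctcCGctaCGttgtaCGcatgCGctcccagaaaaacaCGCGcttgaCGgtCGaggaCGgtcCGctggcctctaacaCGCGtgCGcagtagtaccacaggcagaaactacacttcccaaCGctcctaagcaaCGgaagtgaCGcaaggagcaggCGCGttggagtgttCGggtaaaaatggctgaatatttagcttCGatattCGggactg
Sbsn, 25 places after Tyrobp (chr7:30751221-30751520, forward strand): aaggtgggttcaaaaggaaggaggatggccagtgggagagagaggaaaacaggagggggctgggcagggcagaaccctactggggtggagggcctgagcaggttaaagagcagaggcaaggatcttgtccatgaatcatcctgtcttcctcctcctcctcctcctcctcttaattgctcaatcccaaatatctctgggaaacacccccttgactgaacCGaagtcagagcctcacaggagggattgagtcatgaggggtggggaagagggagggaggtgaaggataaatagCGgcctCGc
Hpn, 43 places after Tyrobp (chr7:31115277-31115576, reverse strand): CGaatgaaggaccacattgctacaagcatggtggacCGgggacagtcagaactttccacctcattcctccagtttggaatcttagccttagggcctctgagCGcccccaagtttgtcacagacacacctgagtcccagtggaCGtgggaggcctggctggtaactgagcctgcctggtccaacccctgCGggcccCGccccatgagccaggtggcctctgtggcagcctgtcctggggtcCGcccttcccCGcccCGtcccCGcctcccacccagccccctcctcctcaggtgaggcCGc
Zfp30, 25 places before Tyrobp (chr7:29783718-29784017, forward strand): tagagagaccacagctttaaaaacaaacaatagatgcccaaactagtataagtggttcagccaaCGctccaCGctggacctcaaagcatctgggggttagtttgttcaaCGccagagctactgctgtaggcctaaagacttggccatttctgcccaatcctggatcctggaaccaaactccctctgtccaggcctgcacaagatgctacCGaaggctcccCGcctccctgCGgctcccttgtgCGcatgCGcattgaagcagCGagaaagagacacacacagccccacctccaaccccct

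The window of Aplp1 holds 26 CG, that of U2af1l4 25, that of Nfkbid 18, those of Hpn and Zfp30 11 and 9, that of Hcst 6 and that of Sbsn 3. Where a gene had several windows (3 for Nfkbid and 2 for Hpn), the one farthest upstream is shown. The 43 windows of 35 members had a median of 13 CG, against 7 over all 32851 windows, of which 94.6% hold at least 1 CG. The neighbourhood therefore mixes CG-rich starts with CG-poor ones such as those of Upk1a (0 CG), Gapdhs and Sbsn. The CG count is a description of the reference sequence and was not set against the signals.

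Tyrobp, the targeted gene, separated the groups by more than any neighbour. In wild-type cultures 1, 2 and 3 its signals were 5584, 7271 and 5396. The Dap12-deficient signals were 125, 96.4 and 96.2. On the scale used throughout, log2 of the signal plus a pseudocount of 16, the difference (Dap12-deficient minus wild-type) was -5.64 (SE 0.20, limma adjusted p = 8.14e-07). Array-wide, 2 of 27022 probe sets (0.0074%) passed an adjusted p of 0.05 in limma, Tyrobp being 1 of them, and 2880 (10.7%) had an unadjusted p under 0.05. Of the 39 member probe sets, 0 passed the adjusted threshold, and 5 (of 4 genes) had an unadjusted p under 0.05. The smallest adjusted p of a member was 0.293. No member passed either under any of the 14 other settings tried, where the smallest adjusted p was 0.0934.

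**Figure D1:**
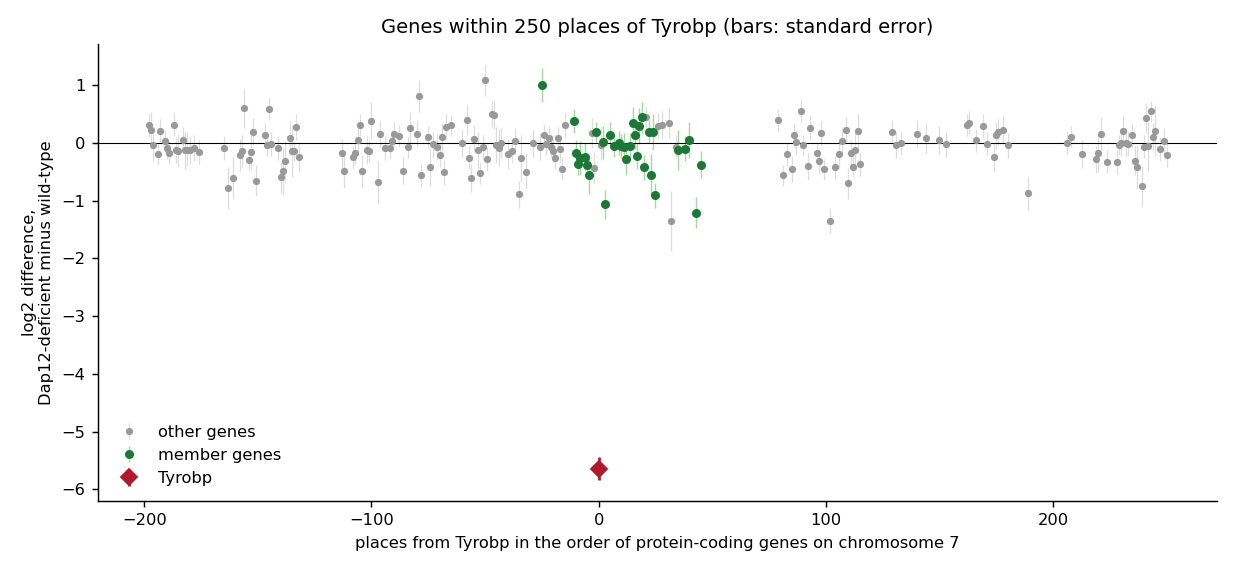
Log2 difference (Dap12-deficient minus wild-type, 3 arrays each) of every tested gene within 250 places of Tyrobp, against its place in the gene order of chromosome 7; bars are standard errors, member genes are green and other genes grey. Tyrobp stands alone at -5.64, while all other genes lie between -1.35 and 1.08.

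Marker genes and technical facts that bear on the values below are these. Microglial markers were present on all arrays (summed signal of 9 of 10 listed genes, 20684 to 29048 in wild-type and 16754 to 25327 in Dap12-deficient cultures), and no found marker lay below the limit on dim probe sets. Summed oligodendrocyte markers (7 of 8 listed genes) ranged from 5400 to 8681 in wild-type and from 1441 to 6566 in Dap12-deficient cultures. Astrocyte markers (7 of 7) ranged from 469 to 914 and from 412 to 1344, and neuron markers (6 of 6) from 191 to 255 and from 113 to 201. Y-linked transcripts (3 of 4 listed genes) summed to 708 to 781 in wild-type and 88.4 to 234 in Dap12-deficient cultures. The Y-linked sums did not overlap between the groups. The labels do not give sex, so in these sums sex and genotype cannot be told apart. For the cell type markers in such bulk RNA, fewer cells of a type and less RNA per cell cannot be told apart. The part of these differences in the results on the flanking genes was not tested.

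None of the genes within 10 places of Tyrobp passed the adjusted threshold, and the 2 nearest on one side, Hcst and Nfkbid, had differences near 0. Hcst, which encodes Dap10, a related signalling adaptor, and is no member, gave 80.3, 73.9 and 42.0 in wild-type cultures against 42.9, 83.4 and 64.4 in Dap12-deficient ones. The groups overlapped, with Dap12-deficient array 2 just above the wild-type range, and the log2 difference was -0.03 (SE 0.26). Nfkbid, an IkB-family protein of the nucleus that modulates NF-kB target genes, gave 89.6, 64.5 and 62.7 in wild-type cultures against 53.3, 54.5 and 123 in Dap12-deficient ones. Dap12-deficient arrays 1 and 2 were below the wild-type range and array 3 was above it. The difference was 0.01 (SE 0.28, limma adjusted p = 0.994). It turned to -0.20 with a common median, to -0.01 with quantile normalization and to less than 0 with a pseudocount of 1. On the other side, Lrfn3, a synaptic adhesion protein, had signals under 20 on all arrays. Its groups overlapped between wild-type array 2 and Dap12-deficient array 3, with a difference of 0.19 (SE 0.18). Sdhaf1, an assembly factor of succinate dehydrogenase that is no member, gave 116, 78.3 and 110 against 42.5, 87.1 and 88.1 (difference -0.44, SE 0.26). Syne4, a nuclear envelope protein 3 places before Tyrobp and no member, was dim, with non-overlapping arrays and means of 6.68 and 16.6 in 1 probe set (difference 0.55, SE 0.21, limma adjusted p = 0.414). Its other probe set gave 0.17 (SE 0.26) and overlapping arrays. Ovol3 and Proser3, also within 10 places, were not analysed here.

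Aplp1, the third gene after Tyrobp, was the member nearest to Tyrobp with an unadjusted p under 0.05. It encodes an amyloid precursor-like protein found mainly in the nervous system. Its brighter probe set gave 123, 87.2 and 93.5 in wild-type cultures against 64.3, 28.4 and 32.4 in Dap12-deficient ones. All 3 Dap12-deficient arrays lay below all wild-type arrays, and the means were 101 ± 19.3 and 41.7 ± 19.7 (SD, n = 3 each). In limma this was a log2 difference of -1.06 (SE 0.25, adjusted p = 0.293), which did not pass. A dimmer probe set of the gene gave 26.3, 8.02 and 20.1 against 26.7, 3.55 and 8.32. There the groups overlapped, and the difference was -0.29 (SE 0.31). Of the 6 neuron markers 3 were on the lower side (among them Tubb3, -0.64 with SE 0.21) and 3 on the higher side, with a median of -0.17. All 7 oligodendrocyte markers were on the lower side, with a median of -1.58 (Mbp -1.93, SE 0.68), and 0 markers of either list passed. Mbp gave 4714, 1142 and 358 on Dap12-deficient arrays 1, 2 and 3, and Aplp1 was likewise highest on array 1. From array 2 to array 3, however, Aplp1 did not fall as Mbp did. Unlike the other tested oligodendrocyte markers, Cnp was lowest on array 1 of this group, with 597, 734 and 933. The part of these markers in the values of Aplp1 was not tested.

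Hpn, 43 places after Tyrobp, had the smallest p of the members. It encodes hepsin, a serine protease anchored in the cell membrane and best known from liver. Its signals were 44.8, 36.4 and 44.9 in wild-type cultures against 0.961, 8.55 and 21.7 in Dap12-deficient ones. Every Dap12-deficient array was below every wild-type array, and array 3 was nearest to them. In limma the difference came to -1.21 (SE 0.27, adjusted p = 0.293) and it ranged from -2.51 with a pseudocount of 1 to -0.52 with a pseudocount of 64. The pseudocount thus sets much of the size of a difference at signals this low.

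Sbsn, 25 places after Tyrobp, had lower signals in 2 probe sets. It encodes suprabasin, a secreted protein of the epidermis. The brighter probe set gave 46.5, 34.1 and 52.7 in wild-type cultures against 17.0, 9.26 and 22.8 in Dap12-deficient ones. The second gave 46.3, 35.2 and 41.6 against 10.7, 25.2 and 12.8. In both, no Dap12-deficient array reached the wild-type range, and the log2 differences were -0.91 (SE 0.22, limma adjusted p = 0.293) and -0.85 (SE 0.22, adjusted p = 0.305). Probe sets of 1 gene can share target sequence and are not independent. Another probe set of Sbsn stayed below 3 on every array and was not tested.

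Zfp30, at the far end on the other side, was the 1 tested member with higher signals in all 3 Dap12-deficient cultures. It encodes a zinc finger protein of the KRAB family of transcriptional repressors. Its signals were 24.9, 4.35 and 24.8 in wild-type cultures against 43.9, 38.3 and 68.8 in Dap12-deficient ones. The lowest Dap12-deficient array exceeded the highest wild-type array, and wild-type array 2 was far below its group. In limma this was a log2 difference of 1.01 (SE 0.30, adjusted p = 0.335). A second probe set of the gene had signals under 10 on all arrays and was not tested.

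**Figure D2:**
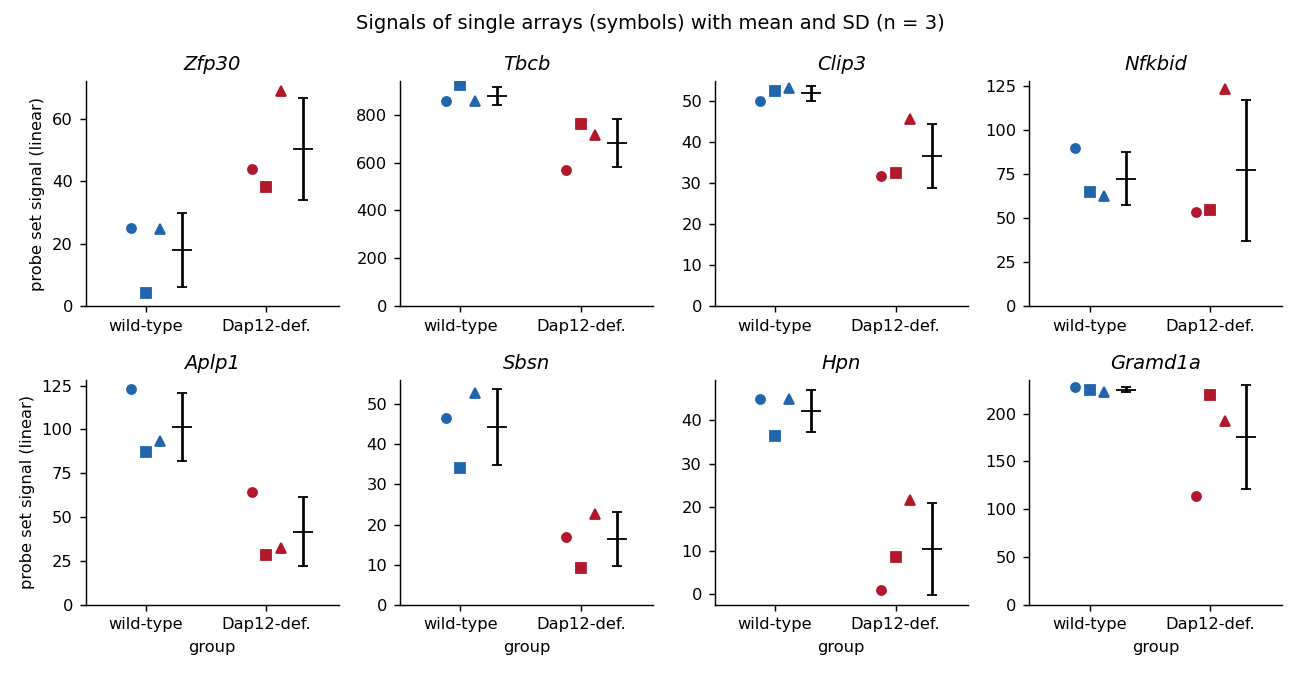
Linear probe set signal of single arrays (circle, square and triangle for arrays 1, 2 and 3; blue wild-type, red Dap12-deficient) with mean and SD (n = 3), for the 7 tested members whose arrays do not overlap between the groups and for Nfkbid. Zfp30 is higher in Dap12-deficient cultures, the other 6 non-overlapping genes are lower, and Nfkbid overlaps.

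By counts, 0 members passed the adjusted threshold. In the main setting, the shares of members with an unadjusted p under 0.05 or with non-overlapping arrays were a little above those of all genes. An unadjusted p under 0.05 was found for 4 of 33 member genes (12.1%), each taken with its brightest tested probe set, against 9.63% of all 12875 genes. Of the 4, 1 was higher and 3 were lower, against 4.76% higher and 4.87% lower of all genes. Arrays did not overlap between the groups for 7 of 33 member genes (21.2%) against 16.4% of all genes, with 1 higher and 6 lower, against 7.54% and 8.85% of all genes. The median log2 difference was -0.07 over the 33 members and -0.03 over all genes, and 20 of 33 members (60.6%) against 54.8% of all genes were on the lower side of 0. Differences under 0.5 in size were seen in 27 of 33 members (81.8%) and in 89.6% of all genes. With no limit on dim probe sets all 37 measured members entered, with 5 (13.5%) at an unadjusted p under 0.05 against 8.62% of all genes. With quantile normalization 6 of 33 members (18.2%) had such a p, against 9.30% of all genes. With the limit on dim probe sets at the 60th percentile 4 of 22 members (18.2%) did, against 9.77% of all genes. In that setting 31.8% of members did not overlap, against 16.8% of all genes. These shares rest on few genes. Without Dap12-deficient array 3, 10 member genes (30.3%, 11 probe sets) had an unadjusted p under 0.05 and 17 (51.5%) did not overlap, against 8.15% and 26.0% of all genes. Without Dap12-deficient array 1 the counts were 6 genes (18.2%, 8 probe sets) and 11 genes (33.3%), against 10.6% and 28.4% of all genes. When all arrays were set to a common median, which moved the median of all genes to -0.23, the members' median was -0.32 and 9 members (1 higher, 8 lower) had an unadjusted p under 0.05 against 17.5% of all genes. Of the genes with such a p, 90.2% were then lower array-wide, against 50.6% with signals as deposited.

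A single array was often the lowest for the members. Dap12-deficient array 1 held the lowest of the 6 signals for 17 of 33 members (51.5%), against 26.0% of all genes. The median deviation of the members from their wild-type mean was -0.36 on this array, and between -0.09 and 0.04 on the other 5 arrays. Over all genes it was -0.05 on Dap12-deficient array 1. Without this array the members' median difference was 0.03, with 16 lower and 17 higher. The array also had the highest median signal over all probe sets (16.4, against 11.9 to 14.6 on the others). Dap12-deficient array 1 was also lowest for some genes outside the list. Examples are Pld3 and Paf1, farther from Tyrobp on chromosome 7, and Cox6a1 on chromosome 5. For others, such as Hnrnpl, it was not. No count was made for such genes, so the pattern is not shown to be particular to the members.

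**Figure D3:**
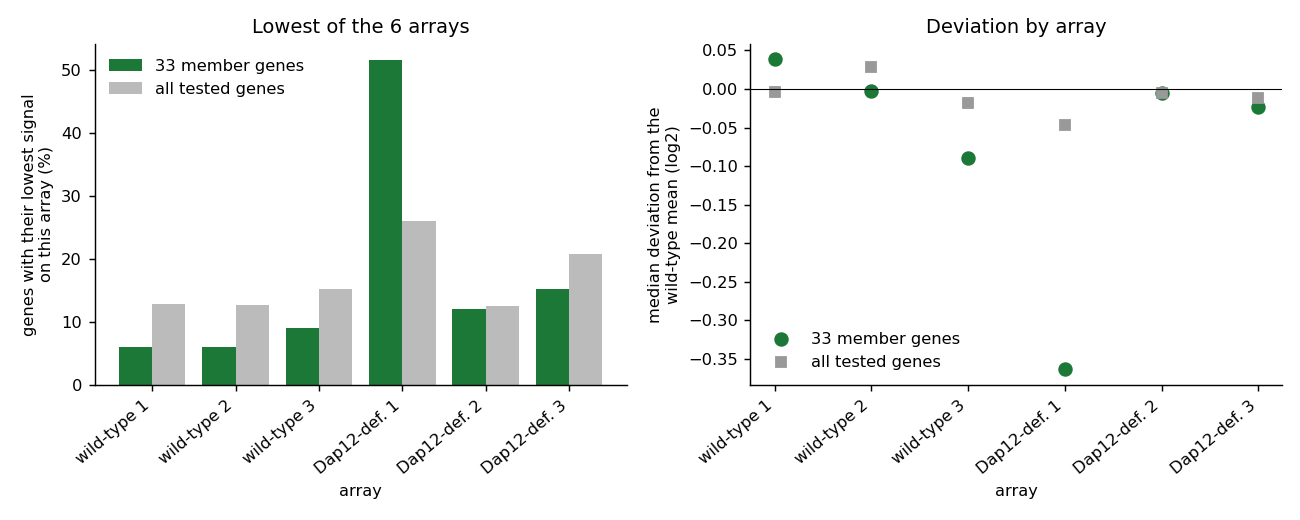
Left, percent of the 33 tested member genes (green) and of all tested genes (grey) with their lowest signal on each array; right, median deviation from the wild-type mean on the log2(signal + 16) scale. Dap12-deficient array 1 is the lowest for 51.5% of members and 26.0% of all genes.

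Of the members with roles in the general cell machinery, 0 passed. Tbcb, a folding cofactor of tubulin 9 places before Tyrobp, gave 859, 923 and 856 in wild-type cultures against 569, 761 and 717 in Dap12-deficient ones. All Dap12-deficient arrays were below the wild-type range, with a difference of -0.37 (SE 0.19, limma adjusted p = 0.519). Clip3, a microtubule-linked protein of the Golgi, gave 49.9, 52.4 and 53.3 against 31.8, 32.5 and 45.5. These groups did not overlap either (difference -0.38, SE 0.19, adjusted p = 0.515), but a dimmer probe set overlapped and gave -0.16. Gramd1a, a sterol transfer protein at the far end, gave 228, 224 and 223 against 114, 219 and 193. The groups were separate by a small margin on array 2, and the difference was -0.38 (SE 0.24, adjusted p = 0.602).

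Polr2i, a subunit of RNA polymerase II, gave 292, 201 and 211 in wild-type cultures against 114, 212 and 280 in Dap12-deficient ones. The arrays overlapped, with array 1 alone below the wild-type range (difference -0.26, SE 0.30). Alkbh6, of the AlkB family of dioxygenases, gave 131, 165 and 132 against 45.4, 98.0 and 160 (difference -0.56, SE 0.33). Tmem147, a membrane protein of the endoplasmic reticulum, gave 628, 388 and 405 against 163, 498 and 361 (difference -0.55, SE 0.35). In both genes Dap12-deficient array 1 was lowest and another Dap12-deficient array lay inside the wild-type range. Without that array the differences were smaller in size, -0.16 for Alkbh6 and -0.12 for Tmem147. Capns1, the small regulatory subunit of calpain proteases, had -0.18 (SE 0.23), and Haus5, a subunit of the augmin complex of the mitotic spindle, -0.42 (SE 0.21). Wdr62, a spindle pole protein, had -0.24 (SE 0.23). Haus5 and this probe set of Wdr62 were dim, with signals at or under 20.7 on all arrays and overlapping groups. A second probe set of Wdr62 was dimmer and not tested, with means of 1.18 in wild-type and 4.78 in Dap12-deficient cultures.

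Among genes of energy metabolism, Cox6b1, a subunit of cytochrome c oxidase, gave 3476, 3323 and 3840 in wild-type cultures against 2237, 2930 and 4243 in Dap12-deficient ones. The Dap12-deficient arrays lay on both sides of the wild-type range, with a difference of -0.22 (SE 0.23) and -0.21 in a second probe set. Cox7a1, an isoform of another subunit typical of heart and muscle, had 0.38 (SE 0.20) at signals under 20 on every array. Gapdhs, the sperm form of a glycolytic dehydrogenase, had 0.19 (SE 0.31).

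Psenen encodes the smallest subunit of gamma-secretase, which cleaves Notch and the amyloid precursor protein. Its signals were 2091, 1877 and 1358 in wild-type cultures against 1264, 1870 and 1947 in Dap12-deficient ones. The groups overlapped almost fully (difference -0.07, SE 0.23). U2af1l4, a paralogue of a splicing factor subunit, is read away from Psenen on the opposite strand. RefSeq gives Psenen 2 windows: from the start of one, U2af1l4 starts 136 bases away and the windows overlap by 235 bases, while the other window does not overlap that of U2af1l4. The difference of U2af1l4 was -0.28 (SE 0.28). Tbcb and Polr2i are a similar divergent pair, with starts 683 bases apart and differences of -0.37 and -0.26. None of these 4 genes passed.

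Other members with roles in the nucleus, besides Zfp30 above, did not pass either. Kmt2b, a histone H3 lysine methyltransferase, gave 69.1, 70.2 and 79.1 in wild-type cultures against 48.3, 76.6 and 89.0 in Dap12-deficient ones, a difference of -0.05 (SE 0.22). Its Dap12-deficient arrays spread more widely than its wild-type arrays and enclosed them. Usf2, which binds E-boxes with Usf1, had -0.12 (SE 0.35) and -0.23 (SE 0.20) in its pair of probe sets, and Lin37, a subunit of the MuvB core that represses cell cycle genes, -0.06 (SE 0.21). Rbm42, an RNA-binding protein, gave 473, 469 and 408 against 394, 846 and 694. Arrays 2 and 3 of the Dap12-deficient group were above the wild-type range and array 1 below it, with a difference of 0.44 (SE 0.27) and 0.19 in a second probe set. Etv2, an ETS factor of blood and vessel formation, had 0.29 (SE 0.32), and Zbtb32, a repressor in lymphocytes, 0.35 (SE 0.28), both at signals under 35.

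Membrane proteins and signalling genes made up the rest. Fxyd5, a regulator of the sodium pump, gave 279, 383 and 272 in wild-type cultures against 236, 327 and 302 in Dap12-deficient ones. Its groups overlapped, with Dap12-deficient array 1 below the wild-type range (difference -0.10, SE 0.21). Fxyd1, phospholemman, had 0.05 (SE 0.31), which turned to -0.10 with a common median and to -0.04 with quantile normalization. Fxyd3 was too dim for the test, with 1.76, 2.05 and 0.994 against 10.4, 9.78 and 9.85. Its groups did not overlap, at levels where the deposited signal is not far above the lowest values on the array. Fxyd7, Prodh2 and Lsr were also too dim, with signals at or under 12.9 on all arrays. Hspb6, a small heat shock protein, had 0.00 (SE 0.21), which was -0.18 with a common median, -0.06 with quantile normalization and -0.01 with a pseudocount of 1. Arhgap33, a sorting nexin family GTPase-activating protein, had -0.06 (SE 0.19). The remaining genes are known from other tissues: Nphs1, nephrin of the kidney filter, had 0.14 (SE 0.21), Upk1a, a plaque protein of the bladder lining, 0.14 (SE 0.23), and Atp4a, the gastric proton pump, 0.19 (SE 0.20). All 3 had signals under 31 on every array and overlapping groups.

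**Figure D4:**
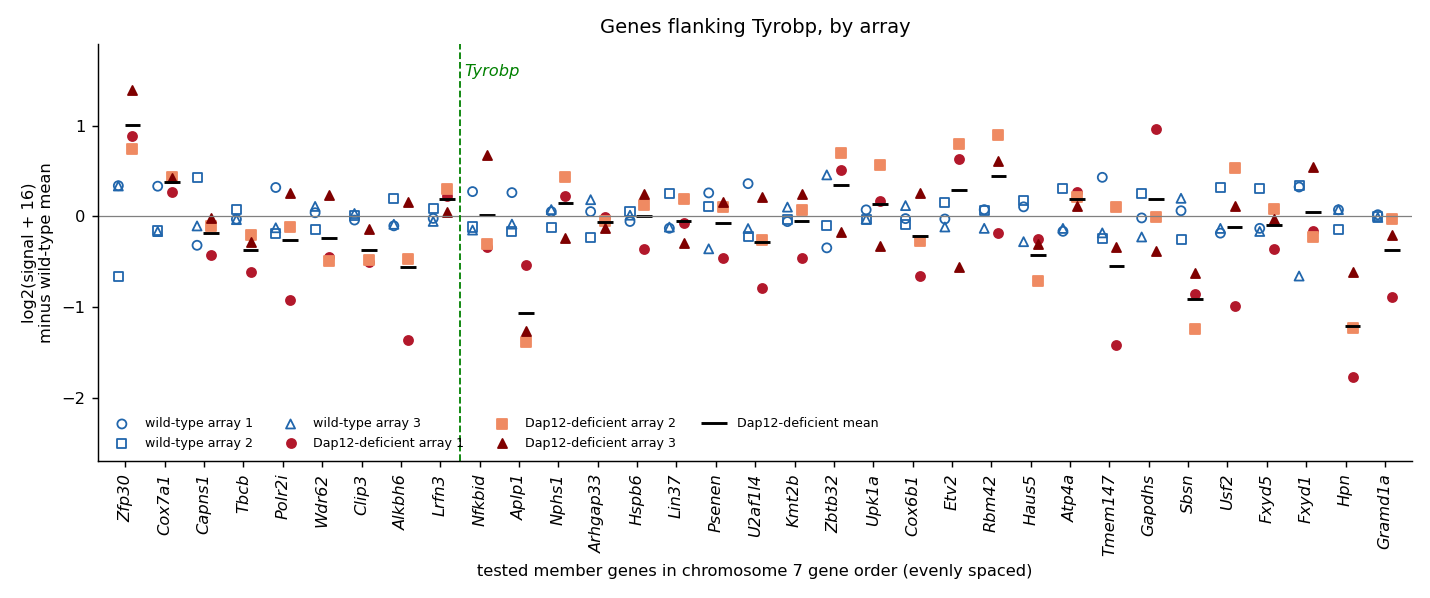
Log2(signal + 16) of each array minus the wild-type mean for the 33 tested members in gene order (open blue symbols wild-type, filled red symbols Dap12-deficient, black bars the Dap12-deficient mean; circle, square and triangle are arrays 1, 2 and 3). Most means lie within 0.5 of 0, Zfp30 is highest and Hpn lowest, and Dap12-deficient array 1 (filled circles) is often lowest.

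The genes that members work with, most of them on other chromosomes, give a frame for these values. Of 67 tested partner genes in 12 lists, 5 of which genes lie on chromosome 7, 0 passed the adjusted threshold and 4 (5.97%) had an unadjusted p under 0.05, a smaller share than the 9.63% of all genes. The median difference of the 67 was -0.04, and 62.7% of them were on the lower side, against 54.8% of all genes. All 12 tested partners of Cox6b1 and Cox7a1 in cytochrome c oxidase were on the lower side, from -0.64 (Cox8a) to -0.02, with Cox6c at -0.50 (SE 0.21) and a median of -0.15. Cox6b1, at -0.22, lay inside that range and Cox7a1, at 0.38, outside it. In gamma-secretase, Psenen at -0.07 lay between Aph1a (-0.73, SE 0.38) and Psen2 (0.65, SE 0.31). Haus5, at -0.42, lay near Haus1 (-0.49, SE 0.19), at the lower end of the 7 augmin partners. Aplp1, at -1.06, lay outside the values of its relatives App (-0.13, SE 0.21) and Aplp2 (0.21, SE 0.20), and Tbcb, at -0.37, outside those of the 4 other tubulin cofactors (-0.12 to 0.10). Among 9 genes of NF-kB and its inhibitors, Nfkbiz had 0.99 (SE 0.19, limma adjusted p = 0.26) and Rel 0.64 (SE 0.21, adjusted p = 0.356), while Nfkbid had 0.01. Capns1, at -0.18, lay just below both calpain partners (-0.11 and 0.40), and Fxyd1, at 0.05, just above the 3 sodium pump subunits (-0.15 to -0.02). Differences between a member and its partners were not tested.

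**Figure D5:**
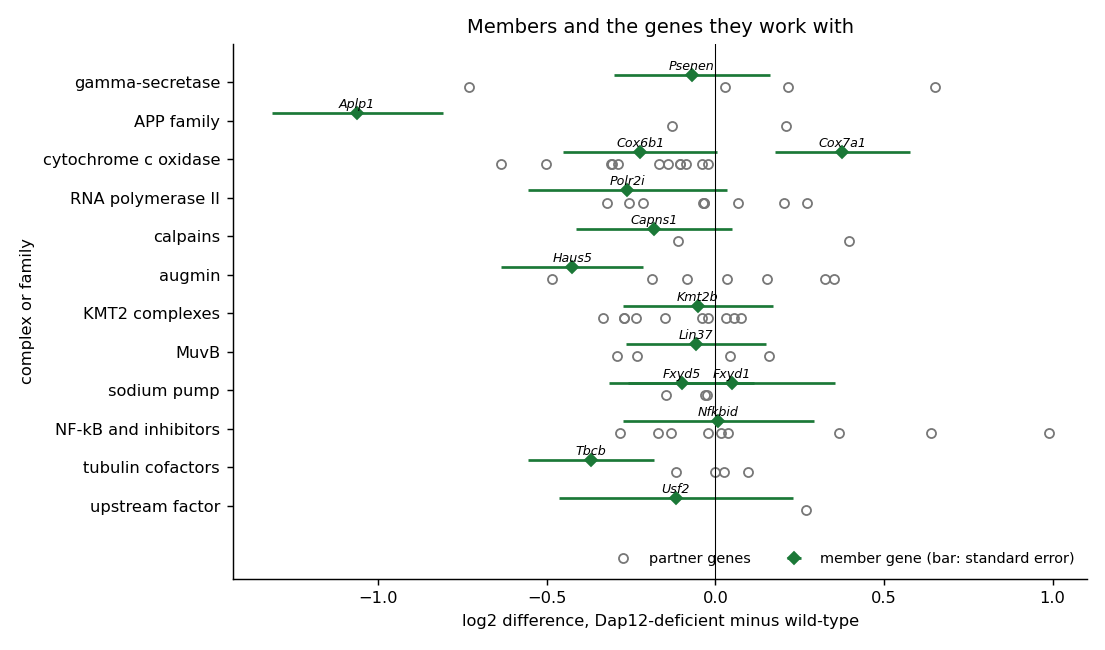
Log2 differences (Dap12-deficient minus wild-type, 3 arrays each) of tested members (green diamonds, bars are standard errors) and of the genes of the same complex or family (open circles). Aplp1, Tbcb, Cox7a1, Capns1 and Fxyd1 lie outside the range of their partners, Usf2 has 1 partner, and the other 8 members lie inside it.

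The genes around the members that the list leaves out were counted in the same way. Without the members, 13 of 79 tested genes within 100 places of Tyrobp (16.5%) had an unadjusted p under 0.05. Of these, 4 were higher and 9 lower, and the share of all genes was 9.63%. Between Zfp30 and Gramd1a, 19 other genes were tested besides Tyrobp, of which 2 (10.5%) had an unadjusted p under 0.05, both lower, against 9.63% of all genes. By distance, 4 of 42 genes (9.52%) within 25 places of Tyrobp had such a p, members included, and 5 of 25 (20%) from 26 to 50 places. From 51 to 100 places they were 8 of 45 (17.8%), and from 101 to 250 places 8 of 104 (7.69%). The share was lower within 25 places of Tyrobp than from 26 to 100 places, a difference that was not tested. On the rest of chromosome 7 it was 76 of 759 (10.0%), and on other chromosomes 1137 of 11880 (9.57%). Within 100 places the count was 17 of 112 (15.2%), with 5 higher and 12 lower. It was 10 without wild-type array 3, where the share of all genes was 6.94% in place of 9.63%. Without Dap12-deficient array 1 it was 18, with a share of all genes of 10.6%, and without Dap12-deficient array 2 it was 17, with 12.1%. The range over all left-out arrays is given at the end.

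Single genes farther out had differences as large as the members'. Among non-members within 100 places, those with the smallest p included Hnrnpl, a splicing regulator 50 places before Tyrobp, with 46.9, 68.8 and 50.2 in wild-type cultures against 174, 162 and 83.5 in Dap12-deficient ones. All its Dap12-deficient arrays were above the wild-type range (difference 1.08, SE 0.27, limma adjusted p = 0.293). Kcnk6, a background potassium channel, gave 364, 361 and 306 against 219, 206 and 122. These groups were separate in the other direction (difference -0.89, SE 0.24, adjusted p = 0.315). The kinase gene Dyrk1b (0.81) and the prolidase gene Pepd (0.55) had higher signals without overlap, and Wtip (-0.56), the deacetylase gene Sirt2 (-0.53) and Eid2 (-0.56) lower signals without overlap. The myelin gene Mag (-1.35, SE 0.52), which lies between members 32 places after Tyrobp, overlapped between the groups and was lowest on Dap12-deficient array 3 (10.2), as was Mbp. Nudt19, a peroxisomal hydrolase 102 places after Tyrobp and named after its values were seen, gave 253, 245 and 222 against 94.2, 99.4 and 63.1. Its groups were far apart (difference -1.35, SE 0.21, adjusted p = 0.164), although a second probe set overlapped and gave -0.47 (SE 0.24). None of these genes passed the adjusted threshold.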

How the data were processed

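RNA for 6 arrays (3 wild-type, 3 Dap12-deficient, grouped by the labels and numbered in accession order) was labelled with a kit for repeated amplification, per the labels' protocols. The authors deposited 1 linear intensity per probe set and array; the submitters' processing notes name GCOS without a version, and the labels name no algorithm. The trimmed mean (2% off each end) was 100.0 on every array, so arrays had been scaled alike. Precision is limited by the number of arrays.

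After 64 controls were left out, 45037 probe sets remained, and those with a mean signal at or above the 40th percentile (8.51) were tested: 27022. Groups were compared by limma (version 3.58.1, R version 4.3.3) with lmFit and then eBayes with an intensity trend. The values were log2(signal + 16), tests were two-sided, and Benjamini-Hochberg adjustment covered all tested probe sets. The steps were run on simulated data whose added differences were larger than that of any member. Detection of differences of the members' size was not simulated. The pseudocount understates differences of dim genes. A gene's value is that of its brightest tested probe set. Genes were named from the platform annotation (1 symbol only) and ordered by a RefSeq gene table of GRCm38.p6; the array annotation names no build, so genes are given by place, and only RefSeq windows carry coordinates. Members were taken from the neighbourhood of Tyrobp, not all genes of it. The members and lists were chosen with earlier results of these data known. Named were Tyrobp, all members, non-members within 10 places, the 8 others within 100 places with the smallest p, and up to 3 partners per list; Nudt19, and the marker genes given singly, were chosen after their values were seen. Plots used matplotlib 3.10.9.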

Additional observations from a re-analysis of the deposited data

How the results depend on the processing

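No paired analysis was possible because the labels give no replicate numbers shared by the groups. Pseudocounts, normalizations, limits on dim probe sets, priors and the left-out array were varied. No member passed under any of the 14 fits, and in 420 of 451 values of single members the direction was kept. Fits that changed only the limit on dim probe sets or the prior left each member's difference as it was. Their directions are among the 420 but could not turn. The sign turned for Nfkbid (-0.20), Hspb6 (-0.18) and Fxyd1 (-0.10) with a common median, for Nfkbid (-0.0149), Hspb6 (-0.0563) and Fxyd1 (-0.0367) with quantile normalization, and for Nfkbid (-0.0038) and Hspb6 (-0.0092) with a pseudocount of 1. A common median also moved the members' median to -0.32 and probe sets called to 5. Member probe sets with an unadjusted p under 0.05 then numbered 10 of 39, where the share of all probe sets was 15.1%. Scaling to a common median lowers Dap12-deficient signals against wild-type ones. The array medians over all probe sets were 14.5 to 16.4 in the Dap12-deficient group and 11.9 to 14.0 in wild-type. Why the medians differed was not tested. Within 50 places of Tyrobp, which holds fewer genes, 9 of 67 genes (13.4%) had an unadjusted p under 0.05 with signals as deposited, against 9.63% of all genes. With 1 array left out at a time, probe sets called ranged from 2 to 172, member probe sets with an unadjusted p under 0.05 from 5 to 11, member genes without overlap from 8 to 17 and genes within 100 places of Tyrobp with an unadjusted p under 0.05 from 10 to 23. The shares of all genes moved too, from 23.9% to 29.8% without overlap (16.4% with all arrays) and from 6.24% to 12.1% with such a p (9.63% with all arrays). The members' median ranged from -0.20 to 0.029 and Tyrobp from -5.75 to -5.50. Probe sets called were 172 without Dap12-deficient array 2 and 15 without Dap12-deficient array 1. The 14 members whose sign turned at least once then ranged as follows: Arhgap33 -0.18 to 0.0297, Capns1 -0.34 to 0.0311, Fxyd1 -0.28 to 0.22, Fxyd5 -0.19 to 0.0509, Gapdhs -0.19 to 0.48, Hspb6 -0.12 to 0.18, Kmt2b -0.20 to 0.15, Lin37 -0.18 to 0.0686, Nfkbid -0.32 to 0.18, Nphs1 -0.00565 to 0.33, Polr2i -0.52 to 0.0698, Psenen -0.25 to 0.13, Upk1a -0.0794 to 0.37, Usf2 -0.44 to 0.32.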
